A study of Mus musculus with 16 samples.

Results

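The genes described here are Meis1, Meis2, Meis3, Pbx2, Pbx3, Pknox1 and Pknox2, members of the TALE class of homeobox genes whose proteins act as cofactors of the Hox proteins. They were chosen by name and are 7 of the 37154 genes tested, 20115 of which have a gene symbol. All 7 passed the filter on low intensity, a log2 intensity of 6 on at least 1 of the 16 arrays. Each gene is represented by its brightest probe. Meis3 has 3 probes and Pknox1 has 2, whereas each of the others has 1.

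RNA came from the E14 line of mouse embryonic stem (ES) cells, which is Sp1+/+, and from an Sp1-/- ES cell clone in which both copies of the gene encode a shortened Sp1 protein that cannot bind DNA. The labels give the strain of both as C57BL/6. The cells were differentiated in culture and 4 populations were taken from each genotype, namely Flk1+ mesodermal cells, isolated from embryoid bodies on magnetic columns, and 3 populations sorted from blast cultures. These are HE1 (KIT+ CD41- Tie2+) and HE2 (KIT+ CD41+ Tie2+), which are stages of the hemogenic endothelium, and progenitors (KIT+ CD41+ Tie2-). Each of the 8 groups was hybridized to 2 one-color Agilent arrays. The sources differ on whether these replicates are biological or technical, so the p-values measure the spread between the arrays. The Sp1+/+ arrays share 1 slide and the Sp1-/- arrays another, and slide and genotype therefore cannot be told apart. The same holds for genotype and clone, as there is 1 Sp1-/- clone.

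The labels were checked first. The log2 intensity of Sp1 lay between 12.14 and 12.56 on the Sp1+/+ arrays and between 9.03 and 10.29 on the Sp1-/- arrays, and the groups did not overlap in any population. The mean log2 intensity of 5 mesoderm markers was 12.6 to 13.8 on the Flk1+ arrays and at most 8.71 on the others. The mean of 6 endothelial markers was highest in HE1, and the mean of 6 blood markers was highest in progenitors, in both genotypes. From 67.0% to 77.1% of the spots of an array were well above background and none was saturated.

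TALE homeodomain proteins bind DNA together with one another and with Hox proteins. Meis and Pknox proteins (the latter also known as Prep) dimerize with Pbx proteins and hold them in the nucleus, and Pbx proteins contact Hox proteins of the anterior and central paralog groups. Meis1 is the member best known in blood, where it is required for definitive hematopoiesis and for megakaryocyte formation and cooperates with Hoxa9 in leukemia.

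The RefSeq promoter table holds a window for 4 of the 7 genes (assembly GRCm38.p6, from 250 bases before to 50 after the transcription start, on the strand of the gene). The windows of Meis1 and Meis2, the members whose Sp1-/- effect passed an adjusted p of 0.05, and of Pbx2, the member with GC boxes, are shown. The Meis1 window is chr11:19018920-19019219 on the minus strand, that of Meis2 is chr2:116064570-116064869 on the minus strand, and that of Pbx2 is chr17:34592009-34592308 on the plus strand. Capitals mark matches, on either strand, to the motifs searched, which were the GC box GGGCGG, the letters bound by the Sp1 family, the CCAAT box CCAAT, the Meis and Pknox core TGACAG and the Pbx-Hox site TGATNNAT.
Meis1: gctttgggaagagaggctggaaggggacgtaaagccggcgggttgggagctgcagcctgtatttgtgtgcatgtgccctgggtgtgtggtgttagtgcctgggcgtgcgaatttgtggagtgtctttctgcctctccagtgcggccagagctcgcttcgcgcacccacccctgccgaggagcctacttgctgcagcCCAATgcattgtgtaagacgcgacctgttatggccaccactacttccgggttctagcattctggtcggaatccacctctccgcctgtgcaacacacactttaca
Meis2: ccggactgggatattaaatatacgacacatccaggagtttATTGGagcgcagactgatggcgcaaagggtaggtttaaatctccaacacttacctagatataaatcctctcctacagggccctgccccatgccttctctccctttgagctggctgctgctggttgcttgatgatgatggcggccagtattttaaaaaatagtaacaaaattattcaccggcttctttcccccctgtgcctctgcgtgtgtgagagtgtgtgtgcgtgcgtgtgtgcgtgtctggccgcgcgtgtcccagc
Pbx2: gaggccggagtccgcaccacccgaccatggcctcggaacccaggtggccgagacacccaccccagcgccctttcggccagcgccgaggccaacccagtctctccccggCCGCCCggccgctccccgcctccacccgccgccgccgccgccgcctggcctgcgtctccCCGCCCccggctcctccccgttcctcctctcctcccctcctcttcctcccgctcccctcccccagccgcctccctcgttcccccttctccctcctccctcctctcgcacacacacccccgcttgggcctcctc
Meis1 has 1 match, a CCAAT box at -54 to -50 from the start. Meis2 has 1 match, a CCAAT box read on the opposite strand at -210 to -206. Pbx2 has 2 GC boxes, both read on the opposite strand, at -142 to -137 and -83 to -78. No motif was matched in the window of Meis3, chr7:16175145-16175444 on the plus strand. Of all 32851 windows of this length, 35.7% hold the GC box, 37.4% the CCAAT box, 19.2% the TGACAG core and 8.85% the Pbx-Hox site. The GC content was 58.3% for Meis1, 51% for Meis2, 66.7% for Meis3 and 76% for Pbx2, with a median of 52.7% over all windows.

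A gene is described as called where it differed 2-fold or more with a p, before adjustment, no higher than 0.01, the thresholds of the study's methods. A second threshold is a Benjamini-Hochberg adjusted p of 0.05 or less over all genes tested in limma, with no minimum fold. Values are log2 intensities as the authors deposited them, and levels are compared between groups for 1 gene, not between genes, since probes differ in brightness. In sorted populations, a lower level in fewer cells and less RNA per cell cannot be told apart.

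The course of the 7 genes from Flk1+ cells to progenitors was examined first. Meis1 rose steeply, Meis2, Meis3, Pbx3 and Pknox2 fell, and Pbx2 and Pknox1 stayed close to their starting level. In both genotypes 1 of the 7 was called higher and 4 were called lower in progenitors than in Flk1+ cells, where 8.58% of all genes were called in Sp1+/+ cells and 12.3% in Sp1-/- cells. From Flk1+ cells to HE1, 2 of the 7 were called in Sp1+/+ cells (8.55% of all genes) and 3 in Sp1-/- cells (9.49%). From HE1 to HE2 the counts were 2 (3.3%) and 3 (5.6%), and from HE2 to progenitors 0 (1.75%) and 1 (5%). At an unadjusted limma p under 0.05, 1 of the 7 stood for the step with no call.

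**Figure D1:**
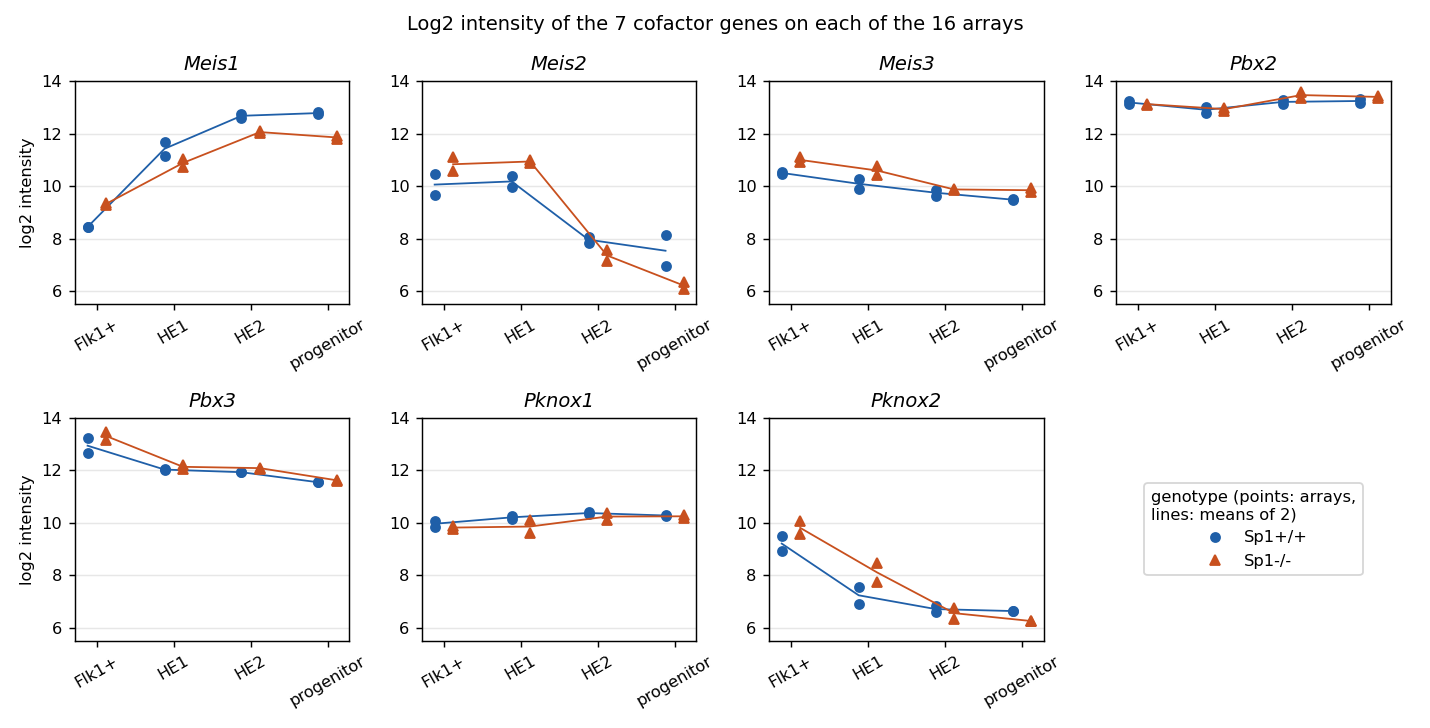
Log2 intensity (vertical axis) of each gene in the 4 populations (horizontal axis). Circles are Sp1+/+ arrays and triangles Sp1-/- arrays, with lines through the means of 2 arrays. Meis1 climbs from 8.44 to 12.78 in Sp1+/+ and from 9.32 to 11.85 in Sp1-/- cells, and the Meis2 lines cross between HE1 and HE2.

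Meis1 had log2 intensities of 8.45 and 8.43 in Sp1+/+ Flk1+ cells, 11.68 and 11.16 in HE1 cells, 12.74 and 12.61 in HE2 and 12.83 and 12.73 in progenitors. In Sp1-/- cells the values were 9.28 and 9.36, then 10.74 and 11.02, then 12.01 and 12.10, and finally 11.92 and 11.78. The Sp1-/- arrays thus lay above the Sp1+/+ arrays in Flk1+ cells and below them in the other 3 populations. From Flk1+ cells to HE1, Meis1 rose by 2.98 (SE 0.15) on the log2 scale in Sp1+/+ and by 1.56 in Sp1-/- cells. It was again higher in HE2 than in HE1, by 1.26 (adjusted p = 0.000651) and 1.18 (adjusted p = 0.000375). HE2 and progenitors were neighbors that did not differ beyond their spread in either genotype. Over the whole course the rise was 20.3-fold in Sp1+/+ and 5.78-fold in Sp1-/- cells.

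Meis2, a relative of Meis1 known from limb, heart and neural development, ran the other way. Its values in Sp1+/+ cells were 10.45 and 9.66 in Flk1+ cells, 10.37 and 9.98 in HE1 cells, 7.84 and 8.07 in HE2 and 8.13 and 6.94 in progenitors. In Sp1-/- cells they were 11.09 and 10.57, 10.98 and 10.89, 7.57 and 7.14, and 6.08 and 6.33. Flk1+ cells and HE1 did not differ beyond their spread, and the fall came between HE1 and HE2. It was 2.22 (SE 0.36, adjusted p = 0.00309) on the log2 scale in Sp1+/+ cells, and in Sp1-/- cells Meis2 fell by 3.58 (SE 0.36, adjusted p = 8.14e-05). From HE2 to progenitors the log2 difference was -0.42 in Sp1+/+ cells. In Sp1-/- cells it was -1.15, which was called (p from limma of 0.00889) with an adjusted p of 0.055, and the call was lost in 12 of the 16 fits that each left out 1 array. All 16 Meis2 spots were well above background, although the Sp1-/- progenitor values lie close to 6.08, the mean lowest log2 intensity of probes above background on those arrays.

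Meis3 declined gradually. In Sp1+/+ cells it was 10.55 and 10.45 in Flk1+ cells, 10.28 and 9.89 in HE1 cells, 9.86 and 9.63 in HE2 and 9.46 and 9.50 in progenitors, and no neighboring populations differed beyond their spread. In Sp1-/- cells it was 11.09 and 10.90, 10.76 and 10.42, 9.85 and 9.89, and 9.76 and 9.92, where the step from HE1 to HE2 passed (log2 difference -0.72, adjusted p = 0.00619). Between the genotypes that step differed by -0.38 on the log2 scale, which did not pass (limma adjusted p = 0.693). From Flk1+ cells to progenitors Meis3 fell by 1.02 (adjusted p = 0.000404) on the log2 scale in Sp1+/+ and by 1.16 (adjusted p = 0.000108) in Sp1-/- cells. With the other Meis3 probes the log2 differences were -0.70 and -0.40 in Sp1+/+ cells and -0.72 and -0.61 in Sp1-/- cells, all in the same direction but under 2-fold.

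Of the Pbx genes, which encode the partners that Meis and Pknox proteins bind, Pbx2 was close to level. Its 16 values lay between 12.80 and 13.59, and no population differed from its neighbor in the order of levels in either genotype. HE2 was above HE1 in Sp1-/- cells by 0.54 (adjusted p = 0.00761), which was not called and no longer passed without Sp1-/- HE2 replicate 2 (adjusted p = 0.0769) or with the arrays of the comparison alone (adjusted p = 0.124). Pbx3 was highest in Flk1+ cells, at 13.23 and 12.64 in Sp1+/+ and 13.47 and 13.14 in Sp1-/- cells. It was 12.05 and 12, 11.92 and 11.93, and 11.54 and 11.54 in Sp1+/+ HE1, HE2 and progenitors, and 12.21 and 12.05, 12.06 and 12.10, and 11.59 and 11.64 in the same Sp1-/- populations. The single step between neighbors that passed was the first one, from Flk1+ cells to HE1, by which Pbx3 fell by 0.91 (adjusted p = 0.00156) and 1.18 (adjusted p = 0.000242) on the log2 scale. Progenitors were 2.63-fold lower than Flk1+ cells in Sp1+/+ and 3.23-fold lower in Sp1-/- cells.

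Pknox1, a widely expressed gene, had values between 9.61 and 10.40 on the 16 arrays. No step between neighboring populations passed an adjusted p of 0.05, the lowest unadjusted limma p being 0.0292 for HE1 to HE2 in Sp1-/- cells. In Sp1-/- cells progenitors were above Flk1+ cells by 0.43 (adjusted p = 0.0484), but the other Pknox1 probe gave 0.07 (adjusted p = 0.811). Pknox2, which has a more restricted expression pattern than Pknox1, was 9.48 and 8.93 in Sp1+/+ Flk1+ cells, 7.55 and 6.92 in HE1 cells, 6.84 and 6.58 in HE2 and 6.62 and 6.65 in progenitors. In Sp1-/- cells it was 10.05 and 9.56, 8.46 and 7.75, 6.77 and 6.34, and 6.26 and 6.25. It was well above background on 12 of the 16 arrays, on 1 of 2 in HE2 of each genotype and on neither Sp1-/- progenitor array, so that its level there is a bound. From Flk1+ cells to HE1 Pknox2 fell by 1.97 (adjusted p = 0.000362) on the log2 scale in Sp1+/+ and by 1.70 (adjusted p = 0.000914) in Sp1-/- cells. HE2 was lower than HE1 in Sp1-/- cells (log2 difference -1.55, adjusted p = 0.00315), and in Sp1+/+ cells the log2 difference was -0.53 (adjusted p = 0.35). Between the genotypes this step differed by -1.025 on the log2 scale, which did not pass (limma adjusted p = 0.565). Progenitors were 5.94-fold lower than Flk1+ cells in Sp1+/+ and at least 11.7-fold lower in Sp1-/- cells.

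**Figure D2:**
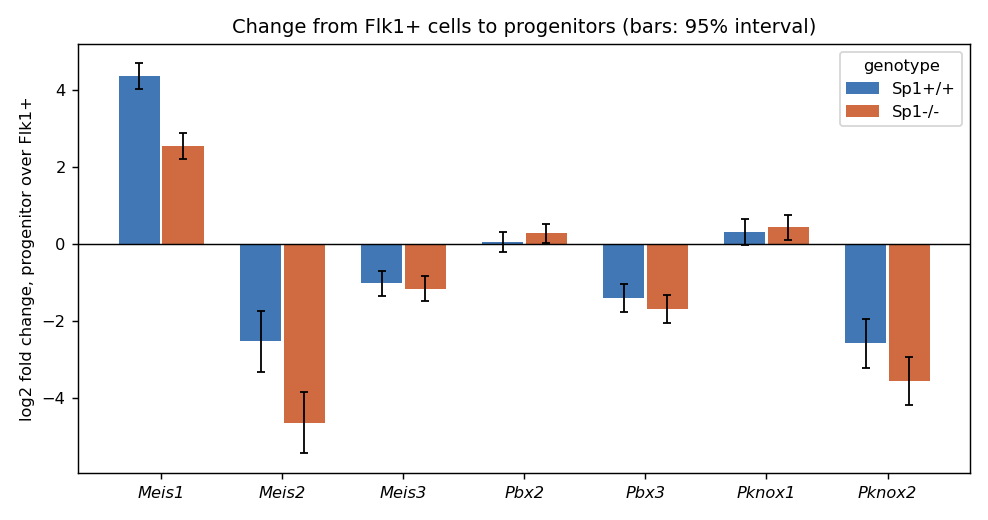
Log2 fold change of progenitors over Flk1+ cells (vertical axis) for each gene (horizontal axis) in Sp1+/+ and Sp1-/- cells. Error bars are 95% intervals from limma. Meis1 stands at 4.34 and 2.53, whereas Meis2 stands at -2.52 and -4.63, and the Sp1-/- value of Pknox2 is a bound.

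The Sp1-/- effect, Sp1-/- minus Sp1+/+, was then compared in each population. None of the 7 genes was called in Flk1+ cells, HE1 or HE2, where 1.64%, 2.1% and 1.95% of all genes were called. At an unadjusted limma p under 0.05 alone, 3 of the 7 stood in Flk1+ cells, 4 in HE1 and 2 in HE2. In progenitors 1 of the 7 was called, Meis2, against 4.11% of all genes. At an adjusted p of 0.05, Meis1 passed in every population and Meis2 in progenitors, which makes 1, 1, 1 and 2 of 7. By the same rule 6.98% of all genes passed in Flk1+ cells, 9.83% for HE1, 5.68% for HE2 and 13.1% for progenitors. The median log2 effect over the 7 genes was 0.50 (Flk1+), 0.11 (HE1), -0.14 (HE2) and -0.03 (progenitors), and over all genes it was 0.01, 0.01, 0.02 and 0.02.

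**Figure D3:**
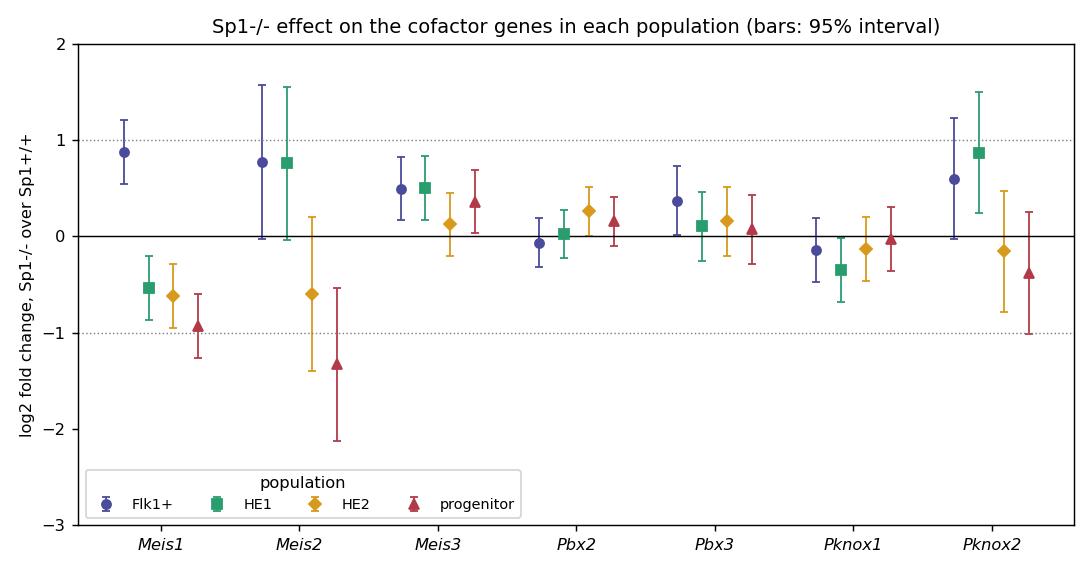
Log2 fold change of Sp1-/- over Sp1+/+ (vertical axis) for each gene (horizontal axis) in the 4 populations. Error bars are 95% intervals from limma and dotted lines mark a 2-fold change. Meis1 is above 0 in Flk1+ cells and below it in the others, whereas the intervals of Pbx2 stay within -0.32 and 0.51.

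Meis1 changed direction with the population. It was 1.84-fold higher in Sp1-/- Flk1+ cells (log2 effect 0.88, SE 0.15, adjusted p = 0.00614) and 1.91-fold lower in Sp1-/- progenitors (log2 effect -0.93, SE 0.15, adjusted p = 0.00212). The effect in progenitors passed in all 16 fits that left out 1 array, and the effect in Flk1+ cells in 15, the exception being the fit without Sp1+/+ Flk1+ replicate 2 (adjusted p = 0.0505). In HE1 the log2 effect was -0.54 (adjusted p = 0.0478) and in HE2 it was -0.62 (adjusted p = 0.0376). These 2 effects rest on few arrays, as they passed in 1 and 4 of the 16 fits, and without Sp1+/+ HE1 replicate 1 the HE1 effect was -0.28. Of 8 other ways to process or fit the values, the HE1 effect passed in 3 and the HE2 effect in 6. The effect in HE1 differed from that in Flk1+ cells by -1.42 (SE 0.21, adjusted p = 0.0135) and the effect in progenitors by -1.81 (SE 0.21, adjusted p = 0.00119). The HE1 difference passed in 14 of the 16 fits that left out 1 array. It did not pass with the scanner's processed signal or with the arrays of the comparison alone. The progenitor difference passed in all of these. The effects in HE2 and HE1 (difference -0.08, 95% interval -0.55 to 0.39) and in progenitors and HE2 (difference -0.31, 95% interval -0.78 to 0.16) could not be separated. Of the 7 genes, 1 was called for the first of these differences, against 1.6% of all genes, and Meis1 and Meis2 for the progenitor and Flk1+ pair, against 3.82%. At an adjusted p of 0.05 the same genes passed, against 0.947% and 5.11%. None was called for HE2 against HE1 (0.743% of all genes) or for progenitors against HE2 (1.59%), where 2 and 0 of the 7 stood at an unadjusted limma p under 0.05.

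Meis2 was 2.51-fold lower in Sp1-/- than in Sp1+/+ progenitors (log2 effect -1.33, SE 0.36, adjusted p = 0.0334). The Sp1+/+ replicates, at 8.13 and 6.94, differed by nearly as much as the genotypes did, and both lay above the Sp1-/- values of 6.08 and 6.33. The call is not stable. Without Sp1+/+ progenitor replicate 1 the log2 effect was -0.74 (adjusted p = 0.295), without Sp1-/- progenitor replicate 1 it was -1.21 (adjusted p = 0.183), and without Sp1-/- progenitor replicate 2 it was -1.46 (adjusted p = 0.0954). With the arrays of progenitors alone in the fit the adjusted p was 0.0658. The effect was -1.88 with an offset of 16 in the background correction and -2.75 with the scanner's processed signal.

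Cell type markers also moved in the progenitor comparison. In progenitors 2.61% of all genes were called lower, and 558 of the 37154 genes were called higher. Of 6 endothelial markers 3 were called lower in Sp1-/- progenitors, namely Cdh5, Esam and Kit. KIT is also a surface marker by which the progenitors were sorted, and the call of Kit was kept in 14 of the 16 fits that left out 1 array. The mean of the endothelial list was 11.02 and 9.88 on the Sp1+/+ arrays against 8.69 and 9.02 on the Sp1-/- arrays. Of 5 mesenchyme markers 4 were called lower, with list means of 10.96 and 10.3 against 7.86 and 7.87, and of 5 cardiac and smooth muscle markers 3 were called lower, with means of 11.3 and 10.9 against 9.25 and 9.03. The call of the mesenchyme marker Postn was kept in 9 of the 16 fits and was lost with the processed signal. That of the muscle marker Nkx2-5 was kept in 13. Of 6 blood markers 1, Ptprc, was called higher and none lower, with means of 11.6 and 11.9 against 12.4 and 12.5. The call of Ptprc was kept in 14 of the 16 fits. The endothelial marker Sox17 and the mesoderm marker Pdgfra were not well above background on either Sp1-/- progenitor array, and the mesoderm markers T and Mesp1 were so in the progenitors of neither genotype. Markers also moved in the earlier populations. In Sp1-/- Flk1+ cells the muscle marker Myl7 (log2 effect 2.46, adjusted p = 0.00207) and the mesoderm marker Eomes (1.22, adjusted p = 0.0211) were called higher, and the mesenchyme marker Twist1 was called lower. The Flk1+ call of Myl7 was kept in all 16 fits that left out 1 array, that of Eomes in 15 and that of Twist1 in 13. The call of Eomes was lost with the processed signal and with the Flk1+ arrays alone. In HE1 2 of the 5 muscle markers (Myl7 and Tnnt2) and 2 of the 6 blood markers (Runx1 and Gfi1b) were called higher. Twist1 was called lower there, and 2.1% of all genes were called. The HE1 call of Gfi1b was kept in 4 of the 16 fits that left out 1 array. Those of Myl7, Tnnt2 and Twist1 were each kept in 13 and that of Runx1 in all 16. With the arrays of HE1 alone all of these HE1 calls were lost. Those of Gfi1b, Tnnt2 and Twist1 were also lost with the processed signal. In HE2 the blood marker Ptprc was called higher and Twist1 and Nkx2-5 lower. The part of other cell types in the values of Meis1 and Meis2 was not tested in any population.

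In Flk1+ cells and HE1 the mean of Meis2 was higher in Sp1-/- than in Sp1+/+ cells, but neither effect passed. The log2 effects were 0.78 (95% interval -0.02 to 1.57, adjusted p = 0.265) and 0.76 (95% interval -0.04 to 1.56, adjusted p = 0.23). In HE2 the effect was -0.60 (95% interval -1.40 to 0.20, adjusted p = 0.447). The effect in progenitors differed from that in Flk1+ cells by -2.11 (SE 0.51, adjusted p = 0.0395), which was called in all 16 fits that left out 1 array, with an adjusted p of 0.05 or less in 4 of them.

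Meis3 values were higher in Sp1-/- cells in Flk1+ cells, HE1 and progenitors, with no overlap, and overlapped in HE2. The log2 effects were 0.50 (adjusted p = 0.0782), 0.51 (adjusted p = 0.0581), 0.13 (adjusted p = 0.759) and 0.36 (adjusted p = 0.157) in the order Flk1+, HE1, HE2 and progenitors. In HE1 the other Meis3 probes gave 0.50 (adjusted p = 0.0182) and 0.32 (adjusted p = 0.227). They gave 0.10 and 0.15 in Flk1+ cells and 0.08 and -0.07 in progenitors, so that the probes disagree on the effect in both.

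Pbx2 and Pbx3 showed no effect that passed. For Pbx2 the largest was 0.26 in HE2 (95% interval 0.01 to 0.51, adjusted p = 0.268), and for Pbx3 it was 0.37 in Flk1+ cells (95% interval 0.01 to 0.73, adjusted p = 0.234). A 2-fold effect lies outside the 95% interval for both genes in every population. The same holds for the brightest probe of Pknox1, whose largest effect was -0.35 in HE1 (95% interval -0.68 to -0.02, adjusted p = 0.184). The other Pknox1 probe gave -0.70 there (adjusted p = 0.0329).

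Pknox2 effects did not pass an adjusted p of 0.05 in any population. The log2 effect was 0.60 (95% interval -0.03 to 1.23, adjusted p = 0.277) in Flk1+ cells and 0.87 (95% interval 0.24 to 1.50, adjusted p = 0.0841) in HE1. In HE2 it was -0.16 (95% interval -0.79 to 0.48). In progenitors the Sp1-/- values of 6.26 and 6.25 were not well above background, so that their level is a bound. The log2 effect computed from them was -0.38 (95% interval -1.01 to 0.25, adjusted p = 0.458), and its interval includes no difference. With the scanner's processed signal the progenitor effect of Pknox2 became -2.26 and was called, on arrays where its spots do not stand above background.

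The other genes of the pathway were taken from lists written by name. Of 11 further TALE genes, none was called in Flk1+ cells, HE1 or HE2. In progenitors 2.61% of all genes were called lower, and so were 2 of the 11. These are Tgif1, a TALE repressor of TGF-beta and retinoid responses, at 11.45 and 10.91 in Sp1+/+ against 10.21 and 9.96 in Sp1-/- progenitors (log2 effect -1.10, adjusted p = 0.00479), and the Iroquois gene Irx1 at 8.30 and 7.50 against 6.21 and 6.25 (log2 effect -1.67, adjusted p = 0.0121). Irx1 was well above background on 1 of the 2 Sp1-/- progenitor arrays. Neither gene was called without Sp1+/+ progenitor replicate 1, nor Tgif1 without Sp1-/- progenitor replicate 2. Of 7 genes for proteins that partner or interact with TALE proteins, 1 was called, in progenitors alone (4.11% of all genes). This is Zfp462, a zinc finger gene. It was 8.98 and 8.35 in Sp1+/+ and 7.30 and 7.32 in Sp1-/- progenitors (log2 effect -1.36, adjusted p = 0.0215), and the call was lost on leaving out Sp1+/+ progenitor replicate 1 or either Sp1-/- progenitor array.

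The Hox genes of paralog groups 1 to 8, whose proteins pair with Pbx, were examined next. Of 23 such genes, 4 were called lower and 1 higher in Flk1+ cells, and 3, 5 and 6 were called lower in HE1, HE2 and progenitors. The percentages of all genes called lower were 0.867% (Flk1+), 1.13% (HE1), 1.18% (HE2) and 2.61% (progenitors), and 0.778% were called higher in Flk1+ cells. The median log2 effect of the 23 genes was -0.49, -0.46, -0.94 and -0.46. In Flk1+ cells Hoxb6 fell by 2.10 (adjusted p = 0.0314) on the log2 scale. Hoxb7, Hoxd1 and Hoxa7 were also called lower there, at adjusted p from 0.0559 to 0.0935. Of the 16 fits that left out 1 array, 14 kept the call of Hoxb6, 13 that of Hoxb7, 13 that of Hoxa7 and 5 that of Hoxd1. With the Flk1+ arrays alone all of these calls were lost. Hoxb1, the exception in direction, was 1.53 higher (adjusted p = 0.00391). In HE1 the called genes were Hoxd1, Hoxd4 and Hoxd8, and in HE2 the called genes included these and Hoxd3. The HE1 call of Hoxd1 was kept in 7 of the 16 fits. That of Hoxd4 was kept in 13, being lost without Sp1+/+ HE1 replicate 1 or either Sp1-/- HE1 array, and was lost with the processed signal and with the arrays of HE1 alone. Hoxd8 fell by 1.62 (adjusted p = 0.0271) in HE1, by 2.08 (adjusted p = 0.0103) in HE2 and by 2.26 (adjusted p = 0.00312) in progenitors. Hoxb4, a gene used to expand blood progenitors in culture, was 9.90 and 8.94 in Sp1+/+ against 7.22 and 7.17 in Sp1-/- progenitors (log2 effect -2.23, adjusted p = 0.00953). Hoxb2 and Hoxd4 were called lower there too, and Hoxd1 was at least 3.31-fold lower, being not well above background on the Sp1-/- arrays. Hoxd3 was likewise at least 2.27-fold lower in HE2.

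Of 16 Hox genes of paralog groups 9 to 13, whose proteins can bind Meis1 directly, Hoxd9 was called lower in all 4 populations and Hoxd10 in HE1. Of all genes, 0.867% (Flk1+), 1.13% (HE1), 1.18% (HE2) and 2.61% (progenitors) were called lower. Hoxd9 fell by 1.70 (adjusted p = 0.0185) in Flk1+ cells, by 1.94 (adjusted p = 0.00937) in HE1 and by 1.97 (adjusted p = 0.00957) in HE2, and was at least 2.22-fold lower in progenitors (adjusted p = 0.0655), where the call was kept in 5 of the 16 fits that left out 1 array. Hoxd10 fell by 1.09 (adjusted p = 0.0112). The median over the 16 genes was -0.20, -0.07, -0.07 and -0.13. Hoxa9, the partner of Meis1 in leukemia, had log2 effects from -0.06 to 0.70 and no call.

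Of 12 genes described as targets of Meis1, Pbx or Hox cofactors in blood, 5 were called in some population, in both directions. In single populations 1.64% (Flk1+), 2.1% (HE1), 1.95% (HE2) and 4.11% (progenitors) of all genes were called. The share of all genes called in some population was not computed. The chemokine genes Ccl3 and Ccl4 were higher in Sp1-/- HE2 (log2 effects 2.06 and 1.60, adjusted p = 0.00241 and 0.0125), and Ccl4 also in progenitors, at 8.01 and 9.17 in Sp1+/+ against 11.10 and 10.55 in Sp1-/- (log2 effect 2.24, adjusted p = 0.000815). Pf4, a platelet factor gene bound by Meis1 in megakaryocytes, was 10.40 and 10.85 in Sp1+/+ and 12.22 and 11.36 in Sp1-/- progenitors (log2 effect 1.17, adjusted p = 0.0588), a call kept in 5 of the 16 fits that left out 1 array. Trib2, which cooperates with Hoxa9 in leukemia, was lower in HE2 (log2 effect -1.10, adjusted p = 0.0457) and in progenitors (-1.43, adjusted p = 0.00636). Both calls were lost with the mean over its probes, and the HE2 call also without Sp1+/+ HE2 replicate 1 or Sp1-/- HE2 replicate 1. Cd34, a surface marker of blood progenitors and endothelium, was lower in HE1 (log2 effect -1.52, adjusted p = 0.0162). Its call in the other direction in Flk1+ cells (log2 effect 1.06, adjusted p = 0.0832) was kept in 7 of the 16 fits. The median effect of the 12 genes was between -0.13 and -0.0075 in the 4 populations. Of 6 genes described as acting upstream of Meis1, 5 were matched to a probe and none was called in any population, where limma's unadjusted p was under 0.05 in 4 of their 20 tests. Creb1 passed in HE1 alone (log2 effect -0.51, adjusted p = 0.0353).

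**Figure D4:**
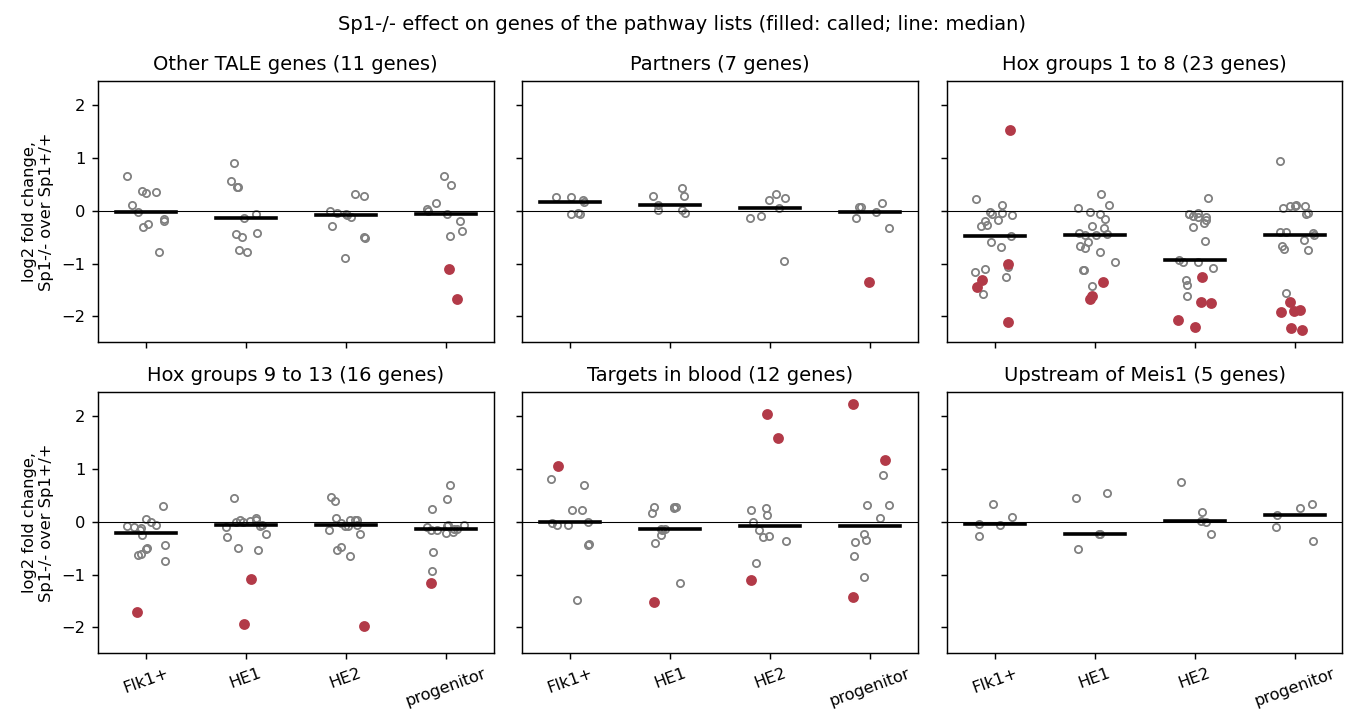
Log2 fold change of Sp1-/- over Sp1+/+ (vertical axis) in the 4 populations (horizontal axis) for the genes of 6 lists. Each point is a gene, filled where it was called, and the black line is the median of the list. Filled points of the Hox lists lie below 0 except that of Hoxb1 in Flk1+ cells at 1.53, and the Meis1 upstream list has none.

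The genes with patterns most like those of the 7 were found by Pearson's r over the 16 arrays among genes with a symbol whose group means span at least 1 on the log2 scale. The arrays of a population share much of their signal, so these values describe the likeness and no test was made. The genes most like Meis1 were Rab27b (r = 0.985), Lgals9 (r = 0.968) and Mylip (r = 0.968), and those most like Meis2 were Tcf7l1 (r = 0.986), Prss12 (r = 0.982) and Zfp618 (r = 0.978). For Pknox2 they were Fst (r = 0.992), Plxnb1 (r = 0.980) and Gpc3 (r = 0.978), and for Pbx3 Ltbp4 (r = 0.983), Grik4 (r = 0.981) and Abcd4 (r = 0.971). Meis3 was most like Mfap2 (r = 0.954), Gm5458 (r = 0.951) and Gm3696 (r = 0.942). The flat genes had lower values, with Pbx2 most like 1190007I07Rik (r = 0.919), Panx1 (r = 0.904) and Arl2 (r = 0.891), and Pknox1 most like Phf2 (r = 0.912), Rnf166 (r = 0.898) and Dcun1d1 (r = 0.885). Among the 7 themselves, Pbx3 and Pknox2 (r = 0.934), Meis3 and Pknox2 (r = 0.916) and Meis3 and Pbx3 (r = 0.861) ran together, and Meis1 ran against Pknox2 (r = -0.901), Pbx3 (r = -0.875) and Meis3 (r = -0.832).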

How the data were processed

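RNA of 16 samples (8 groups of 2) was hybridized to one-color Agilent SurePrint G3 mouse arrays. Spot intensities were taken from the scanner files that the authors deposited, made with Agilent Feature Extraction 10.7.1.1 per the labels. The log2 values analysed are those the authors deposited, described as normexp background correction followed by quantile normalization in limma. The stated normexp offset is 16, but a recomputation from the intensities differed from the deposited log2 values by at most 0.0258 with an offset of 50 and by up to 1.63 with 16, and levels near background are compressed more by the larger offset.

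Control spots were removed, outlier spots (95 to 182 an array) set to missing, 432 repeated probes averaged, and probes kept at a log2 value of 6 or more on at least 1 array. RefSeq target names were matched to symbols for 20869 of 37932 targets, and the brightest probe stood for a gene. The 37154 genes were fitted in limma 3.58.1 (R 4.3.3) with a mean for each group and 8 residual degrees of freedom, and p-values were adjusted over all genes by the Benjamini-Hochberg method. A probe below background on both arrays of a group gives a bound, its mean there or the lowest signal above background. The fit was tested on simulated data.

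The members and gene lists were chosen with earlier results of these data known. Named are all members, Sp1, genes of the lists that were called, and the 3 genes most like each member. Genes of the lists that passed only the adjusted threshold, and Hoxa9, were named after their values were seen. The number of arrays limits the precision. Some genes of the lists enter the counts but are not reported here by name.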

Additional observations from a re-analysis of the deposited data

Results flagged for a closer look

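Of the differences in Sp1-/- effect between populations, 3 passed an adjusted p of 0.05 in limma. The Meis1 effect in HE1 minus that in Flk1+ cells was -1.42 on the log2 scale, and the Meis1 effect in progenitors minus that in Flk1+ cells was -1.81. The former did not pass with the processed signal or with the arrays of the comparison alone. The Meis2 effect in progenitors minus that in Flk1+ cells was -2.11. The Sp1-/- arrays were higher than both Sp1+/+ arrays in Flk1+ cells and lower than both in the later population for each of the 3.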

How the results depend on the processing

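No called change in a member reversed direction under the alternatives run. On the processed signal of the scanner, scaled to its 75th percentile, 1 member was called for the Sp1-/- effect in Flk1+ cells (0 with the deposited values), 2 in progenitors (1) and 2 from HE2 to Sp1-/- progenitors (1), and the lists gave 4 other TALE genes (2), 17 Hox genes of groups 1 to 8 (11) and 5 of groups 9 to 13 (2). The last count was also 5 with an offset of 16. That signal moved the median effect of all genes in HE1 to 0.19, and the calls there were 1388 higher and 646 lower, against 361 and 421, so that 31.8% were lower against 53.8%. In HE2 it gave 998 higher and 727 lower (42.1% lower against 60.4%), in Flk1+ cells 766 and 592 against 289 and 322, and in progenitors 1335 and 1630 against 558 and 968. At an adjusted p of 0.05 with no minimum fold, 1, 1, 1 and 2 members passed in the 4 populations, 5 from HE1 to HE2 in Sp1-/- cells (3) and 0 from HE2 to Sp1-/- progenitors, with 6 other TALE genes, 2 partner genes (1), 6 Hox genes of groups 9 to 13 and 1 gene upstream of Meis1 (0). At an adjusted p of 0.01 and 2-fold, 0 members were called in progenitors, 0 from HE2 to Sp1-/- progenitors, 0 for the HE1 and Flk1+ difference in effect (1) and 1 for the progenitor and Flk1+ difference (2), with 1 other TALE gene, 0 partner genes, 3 and 1 Hox genes and 3 targets (5). With the arrays of the comparison alone, 0 members were called in progenitors and 1 for the HE2 and HE1 difference in effect (0). With the replicate number as a block, 2 were called for that difference, Meis2 and Pknox2, and no other 2-fold call of a member changed, while at an adjusted p of 0.05 the HE1 effects of Pknox2 (0.0150) and Meis3 (0.0411) passed and that of Meis1 (0.0535) did not. The numbers were not taken as pairs, since deviations of same-numbered arrays correlated between genotypes at 0.23 (Flk1+), 0.28 (HE1), -0.17 (HE2) and -0.11 (progenitors), and from -0.17 to 0.50 over all pairs of groups, the highest being Sp1+/+ HE1 with HE2. Leaving out 1 array gave 0 to 1 called members in HE1, in progenitors, from HE2 to Sp1-/- progenitors and for the HE2 and HE1 difference in effect, and 1 to 2 from HE1 to HE2 in Sp1+/+ cells. It gave 0 to 6 other TALE genes (0 without Sp1+/+ progenitor replicate 1, 6 without Sp1-/- HE1 replicate 1 and 1 without Sp1-/- progenitor replicate 2), 0 to 1 partner genes and 1 to 3 Hox genes of groups 9 to 13. The cause of these changes was not tested.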
